A study of Mus musculus with 12 samples.

Results

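Solute carriers are membrane proteins that move sugars, amino acids, ions, metals, vitamins and organic anions across plasma and organelle membranes. The set described here holds 162 genes, chosen by symbol and by their total count: of 385 protein-coding mouse genes whose symbol begins with Slc or Slco and a number, 162 had at least 30 counts over the 10 bulk samples, 125 had 1 to 29 counts and 98 had 0. Just inside this minimum lay Slc39a14 with 30 counts, and just outside it lay Slc25a38 and Slc25a40 with 29 each. The median member had 94 counts, and the highest, Slc1a2, had 2625.

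The cells came from the brains of 5 male p16-3MR mice on a C57BL/6 background, aged 113, 115, 116, 116 and 116 weeks. In this line the promoter of the cell cycle inhibitor p16 drives a reporter that joins red fluorescent protein (RFP) to Renilla luciferase and a truncated viral thymidine kinase, so RFP stands for activity of the transgene and not for the endogenous protein. Viable nucleated cells were sorted from each brain, after cold protease dissociation and removal of myelin, into an RFP-positive and an RFP-negative population, RFPpos and RFPneg (RFPHigh and RFPLow in the methods), which gave 5 samples of each, paired by mouse. RNA was counted by 3' tags, 1 tag for each transcript end, so levels in CPM (counts scaled to the same total in each sample) are not divided by gene length. The 2 single-cell samples of the series are not analysed here.

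At the blood-brain barrier, endothelial cells take up glucose, amino acids and lactate through solute carriers, because tight junctions close the path between cells. Astrocytes clear glutamate and GABA with sodium-driven carriers, and microglia, the macrophages of brain tissue, hold a fructose transporter and carriers of lysosomal membranes. Many members are thus also marks of the cell type that holds them, and in bulk samples fewer cells of a type and less RNA per cell cannot be told apart.

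Counts on genes came to 177287, 196103, 415834, 248471 and 299680 in the RFPneg samples of mice 1 to 5 and to 222560, 289713, 223052, 250482 and 242798 in their RFPpos samples. Reads assigned to no gene made up 34.9% ± 2.24 of the RFPneg samples and 41.5% ± 4.27 of the RFPpos samples (SD, n = 5 each). The ranges of this share, 32.1% to 37.2% and 38.4% to 48.6%, did not overlap, and its part in the results below was not tested. At these depths 3 counts over the RFPpos group correspond to 2.44 CPM, the level below which a gene at 0 could not be detected; this floor and the intervals below cover counting error only.

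The sorted populations were first checked against markers of brain cell types. The 20 microglia markers summed to 26973, 18312, 19436, 17350 and 25357 CPM in the RFPneg samples of mice 1 to 5, and to 50126, 43633, 46092, 44698 and 37916 CPM in their RFPpos samples. All 20 rose, and Ctss was the most abundant of them. The 10 endothelial markers summed to 4127 CPM ± 1723 in RFPneg and 185 CPM ± 75.5 in RFPpos (SD, n = 5 each), with all 10 lower. Flt1 was the most abundant of them in RFPneg and Cldn5 in RFPpos, and Emcn had no count in any RFPpos sample. Microglia RNA was thus present in both populations, and RFPneg held more RNA of the vessel wall. The share of all counts on the 162 members was 1.57% ± 0.163 in RFPneg and 1.21% ± 0.222 in RFPpos, lower in RFPpos in 5 of 5 mice, with the lowest value, 0.862%, in the RFPpos sample of mouse 1.

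Of the 162 members, 9 were higher in RFPpos at an adjusted p under 0.05 (edgeR's quasi-likelihood test with mouse as a block, Benjamini-Hochberg adjustment over 8902 genes), or 5.56%, where 5.68% of all tested genes were higher. Lower at that threshold were 28 members, or 17.3%, where 9.11% of all tested genes were lower. With an absolute log2 fold change above 1 as a further condition, 8 members (4.94%) were higher beside 3.67% of all genes, and 25 (15.4%) were lower beside 8.22%. The share of members that rose was close to that of all genes. The other 125 members did not pass, with log2 fold changes from -2.22 to 1.89, and the median log2 fold change was -0.12 over the members and -0.08 over all tested genes. The minimum of 30 counts favours members that are high in at least 1 population: 15 members had fewer than 10 counts over the RFPpos group and 0 had so few over the RFPneg group, so the count of fallen members includes genes that entered through RFPneg alone.

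**Figure D1:**
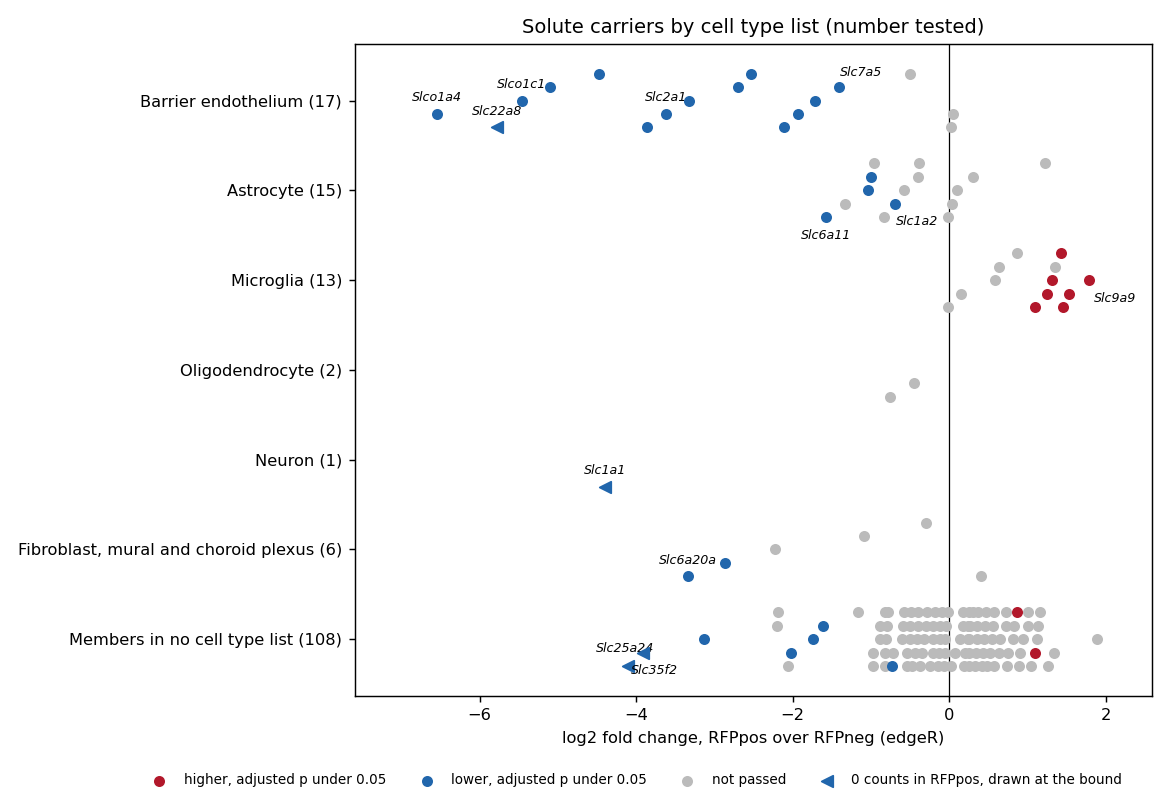
Each point is a member, placed by its log2 fold change between RFPpos and RFPneg on the horizontal axis and by the cell type list that holds it, with colour for direction at an adjusted p under 0.05. The lists were chosen with earlier results of these data known. Of 17 tested genes of the barrier list 14 were lower, where 9.11% of all tested genes were. Of 13 of the microglia list 7 were higher, where 5.68% were. Triangles mark the 4 members without a count in RFPpos, drawn at the bound that 3 counts set.

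Organic anion transporters of the barrier were lower in RFPpos. Slco1a4 (ENSMUSG00000030237, GRCm38 chr6:141805440-141856199, minus strand), which carries bile acids, steroid conjugates and drugs, stood at 214, 688, 798, 1260 and 724 CPM in the RFPneg samples of mice 1 to 5 and at 4.49, 3.45, 4.48, 15.97 and 8.24 CPM in their RFPpos samples. The groups did not overlap, although the RFPpos values rest on 1, 1, 1, 4 and 2 counts. The RFPneg sample of mouse 1 was the lowest of its group. The log2 fold change was -6.55 (SE 0.32, edgeR adjusted p 1.81e-16). On the same chromosome, Slco1c1 (chr6:141524368-141570177, plus strand), which takes up thyroxine, had 169, 337, 356, 515 and 337 CPM in RFPneg and 4.49, 3.45, 4.48, 19.96 and 4.12 CPM in RFPpos. These RFPpos values rest on 1, 1, 1, 5 and 1 counts, so the higher value of mouse 4 comes from 5 counts. All of them were far below every RFPneg value. The log2 fold change was -5.47 (SE 0.35, edgeR adjusted p 7.68e-14). Slc22a8, which carries organic anions out of the brain, had 50.8, 117, 98.6, 270 and 134 CPM in RFPneg and no count in any RFPpos sample. Against 3 counts over the group it was at least 55.1-fold lower in RFPpos (edgeR adjusted p 1.31e-09). Genes of the Slco1a cluster are close copies of one another, and how the counting split shared reads is not given in the sources used here, so the level of Slco1a4 is uncertain to that extent.

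Nutrient carriers of the barrier were lower as well. Slc2a1 (ENSMUSG00000028645, GRCm38 chr4:119108711-119137983, plus strand), the glucose transporter of the barrier, stood at 214, 683, 755, 902 and 541 CPM in the RFPneg samples of mice 1 to 5 and at 8.99, 55.2, 49.3, 75.8 and 53.5 CPM in RFPpos. No RFPpos value reached the lowest RFPneg value, and mouse 1 was the lowest in both populations. The log2 fold change was -3.62 (SE 0.24, edgeR adjusted p 1.96e-13). Slc16a1, a proton-coupled carrier of lactate, pyruvate and ketone bodies, had 67.7, 153, 178, 201 and 113 CPM in RFPneg and 0, 20.7, 22.4, 63.9 and 20.6 CPM in RFPpos, with a log2 fold change of -2.53 (SE 0.37, edgeR adjusted p 3.45e-06). The value in RFPpos was lower in 5 of 5 mice.

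Amino acid carriers of the barrier differed among themselves. Slc7a1, which takes up arginine and lysine, had 62.1, 138, 139, 205 and 183 CPM in RFPneg and 17.97, 6.90, 8.97, 39.9 and 37.1 CPM in RFPpos, a log2 fold change of -2.69 (SE 0.37, edgeR adjusted p 1.23e-06). Slc7a5, the light chain of the large neutral amino acid transporter, had 90.2, 321, 315, 250 and 237 CPM in RFPneg and 53.9, 55.2, 121, 108 and 94.7 CPM in RFPpos. It was lower in RFPpos in 5 of 5 mice, although the groups overlapped at the RFPneg sample of mouse 1, and its log2 fold change was -1.40 (SE 0.26, edgeR adjusted p 1.29e-04). Slc3a2, the heavy chain that Slc7a5 shares with other light chains, stood at 423 CPM ± 84.3 in RFPneg and 415 CPM ± 84.8 in RFPpos (SD, n = 5 each) and did not pass (log2 fold change 0.05, edgeR adjusted p 0.93). The 2 chains of this transporter therefore differed in their result, and a test of the difference between them was not made. Slc38a5, a glutamine carrier, had 58 counts in RFPneg and 1 in RFPpos, all from mouse 5, a ratio of 53.3 with a 95% exact counting interval of 9.19 to 2140.

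Further members of the barrier list that fell were Slc6a6, the taurine transporter, Slc30a1, which exports zinc, and Slc9a3r2, an adaptor protein that carries a Slc symbol and transports nothing itself. Slc6a6 was among the most abundant members, at 688, 1397, 1303, 1541 and 1095 CPM in RFPneg and 243, 276, 157, 371 and 276 CPM in RFPpos. The groups did not overlap, and the log2 fold change was -2.11 (SE 0.21, edgeR adjusted p 2.90e-09). The remaining fallen genes of the list were Slc19a3 (38 counts against 1, a ratio of 34.9 with a 95% exact counting interval of 5.90 to 1415), Slc16a4 (41 against 3, a ratio of 12.6 with an interval of 4.01 to 63.4; not passed without mouse 2, at a log2 fold change of -2.71) and Slc38a3 (log2 fold change -1.71; -1.51, -1.95, -1.75 and -1.23 and not passed without mouse 1, 2, 3 or 5). Without mouse 3 or 4 Slc19a3, and without mouse 5 Slc16a4, was under 30 counts and not tested. In all, 14 of 17 tested genes of the list of 20, the adaptor included, were lower and 0 higher (edgeR). The median log2 fold change of the 17 was -2.69, where 9.11% of all tested genes were lower and their median was -0.08. The list was chosen with earlier results of these data known, so this count describes the list and is not a test of it. Slc38a5, Slc19a3 and Slc16a4 reached the minimum of 30 counts through RFPneg alone. Slc3a2, Slc39a8 and the iron exporter Slc40a1 did not pass; Slc40a1 stood at 98.7 CPM ± 23.7 in RFPneg and 96.9 CPM ± 21.01 in RFPpos.

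The barrier carriers as a sum and the markers of endothelium were both lower in RFPpos, the carriers by less. The median log2 fold change was -5.19 over the markers and -2.69 over the tested carriers. Summed over the list of 20, the carriers held 2330, 4855, 4781, 6492 and 4371 CPM in the RFPneg samples of mice 1 to 5. The 10 endothelial markers held 1461, 4809, 4776, 6017 and 3574 CPM in the same samples. Mouse 1 was lowest and mouse 4 highest in both sums. In RFPpos the carriers summed to 1069 CPM ± 194 and the markers to 185 CPM ± 75.5 (SD, n = 5 each). The largest parts of the carrier sum in RFPpos were Slc3a2, Slc6a6 and Slc40a1, with means of 415, 265 and 96.9 CPM. The 8 markers of pericytes and smooth muscle summed to 431 CPM ± 129 and 66.9 CPM ± 35.6, with all 5 tested genes lower, Rgs5 the most abundant in RFPneg and Vtn in RFPpos, and Kcnj8, Abcc9 and Tagln at 0 in RFPpos. The part of these cells in the fall of the carriers was not tested.

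Among carriers of the microglia list 7 of 13 tested rose and 6 did not pass. Slc2a5 (ENSMUSG00000028976, GRCm38 chr4:150119283-150144169, plus strand), a fructose transporter used as a microglia marker, stood at 192, 122, 86.6, 92.6 and 187 CPM in the RFPneg samples of mice 1 to 5 and at 395, 324, 359, 371 and 264 CPM in RFPpos. Every RFPpos value lay above every RFPneg value. The log2 fold change was 1.46 (SE 0.23, edgeR adjusted p 1.44e-05). Slco2b1 (ENSMUSG00000030737, GRCm38 chr7:99657804-99711340, minus strand), an organic anion transporter of the same family as Slco1a4, had 355, 219, 240, 205 and 267 CPM in RFPneg and 548, 469, 475, 559 and 540 CPM in RFPpos. Its groups did not overlap either, and the log2 fold change was 1.103 (SE 0.19, edgeR adjusted p 7.42e-05). Slc9a9, a sodium-proton exchanger of endosomes, had 56.4, 61.2, 45.7, 16.1 and 46.7 CPM in RFPneg and 189, 169, 125, 148 and 111 CPM in RFPpos. It had the largest log2 fold change among the members that rose, 1.79 (SE 0.30, edgeR adjusted p 4.03e-05).

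Slc29a3, a nucleoside carrier of lysosomes, rose from 144 CPM ± 59.6 to 314 CPM ± 28.5, and Slc7a8, a second light chain of Slc3a2, from 105 CPM ± 44.7 to 240 CPM ± 57.4 (SD, n = 5 each). Both were higher in 5 of 5 mice, with log2 fold changes of 1.25 and 1.31. Slc15a3, a peptide and histidine carrier of lysosomes, had 39.5, 30.6, 40.9, 16.1 and 30.03 CPM in RFPneg and 4.49, 82.8, 112, 104 and 128 CPM in RFPpos, so it was higher in 4 mice and lower in mouse 1. Its log2 fold change of 1.43 (edgeR adjusted p 0.023) became 1.89 without mouse 1 (edgeR adjusted p 3.46e-04), and the call was lost without mouse 2, 3, 4 or 5 (log2 fold changes of 1.43, 1.42, 1.17 and 1.19). Slc15a3 also did not pass with DESeq2 (1.29), with filterByExpr, which tests fewer genes (1.35), or with counts thinned to the smallest library (1.25). Slc37a2, a sugar phosphate carrier of macrophages, was higher in 4 of 5 mice, from 23.8 CPM ± 10.9 to 66.7 CPM ± 22.1. Its log2 fold change was 1.53 (edgeR adjusted p 0.017), and the call was lost without mouse 2, 3 or 5 (log2 fold changes of 1.32, 1.58 and 1.22). With DESeq2 Slc37a2 did not pass either (1.52).

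In all, 7 of 13 tested carriers of the microglia list of 14 rose and 0 fell (edgeR). The median log2 fold change of the 13 was 1.25, where 5.68% of all tested genes were higher and their median was -0.08. Earlier results of these data were known when this list was chosen too, so the count describes it and is not a test. Slc11a1, a metal transporter of phagosomes, stood at 107, 40.8, 38.5, 36.2 and 40.04 CPM in RFPneg and 108, 48.3, 53.8, 124 and 111 CPM in RFPpos. It was higher in RFPpos in 5 of 5 mice and did not pass (log2 fold change 0.87, edgeR adjusted p 0.089). Slc7a7, a light chain that exports cationic amino acids, did not pass either (log2 fold change 1.35, edgeR adjusted p 0.16). Outside the list, Slc16a6 (log2 fold change 0.87, edgeR adjusted p 0.0021) and Slc12a9 (1.096, edgeR adjusted p 0.0089) rose in 5 of 5 mice. The call on Slc12a9 was lost without mouse 2 or 3 (log2 fold changes of 0.96 and 0.99). It was also lost with DESeq2 (1.06) and with counts thinned to the smallest library (0.93).

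With library sizes taken from the summed counts of the 20 microglia markers, the median over all genes shifted by -1.13 on the log2 scale, and 0 members were higher (edgeR, 0 at an unadjusted p under 0.05 as well; no other tool was run with this scaling) while 80 were lower. The carriers of the microglia list then had a median log2 fold change of 0.13, where the median of all tested genes was -1.21. Slc9a9 kept the largest value of the 9 risen members at 0.67 (edgeR adjusted p 0.083), followed by Slc37a2 at 0.41 and Slc2a5 at 0.33. Slco2b1 at -0.03, Slc12a9 at -0.03 and Slc16a6 at -0.26 changed sign with this shift, and the other 6 risen members stayed above 0 without passing. The fallen members of the barrier fell further under this scaling, Slc2a1 to -4.78.

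**Figure D2:**
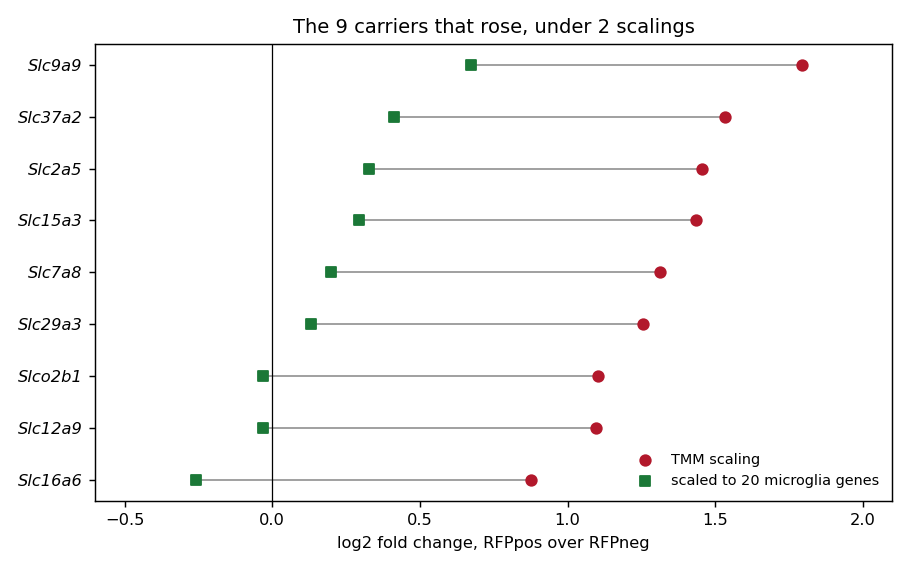
Log2 fold changes between RFPpos and RFPneg of the 9 members that rose, with trimmed-mean (TMM) library scaling as circles and with libraries scaled to the 20 microglia markers as squares. Values between 0.87 and 1.79 moved to between -0.26 and 0.67, and Slco2b1, Slc12a9 and Slc16a6 crossed 0.

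Of 45 families with a member, 5 held at least 1 member that rose and at least 1 that fell under TMM scaling. Among sugar transporters Slc2a1 fell and Slc2a5 rose. Among organic anion transporters Slco1a4, Slco1c1 and Slco3a1 fell and Slco2b1 rose, among amino acid carriers Slc7a1 and Slc7a5 fell and Slc7a8 rose, and among monocarboxylate carriers Slc16a1 and Slc16a4 fell and Slc16a6 rose. The call on Slco3a1 (log2 fold change -2.01) was lost without mouse 1, 2, 3 or 4 (-1.63, -2.13, -1.91 and -1.92). In the Slc9 family the exchanger Slc9a9 rose, and the gene that fell was the adaptor Slc9a3r2. In these 5 families the name therefore did not give the direction. Among the other families with more than 1 passed member, Slc6, Slc38, Slc1 and Slc39 held 4, 3, 2 and 2 members that fell and 0 that rose. Relative to the microglia markers no family held a member that passed as higher.

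**Figure D3:**
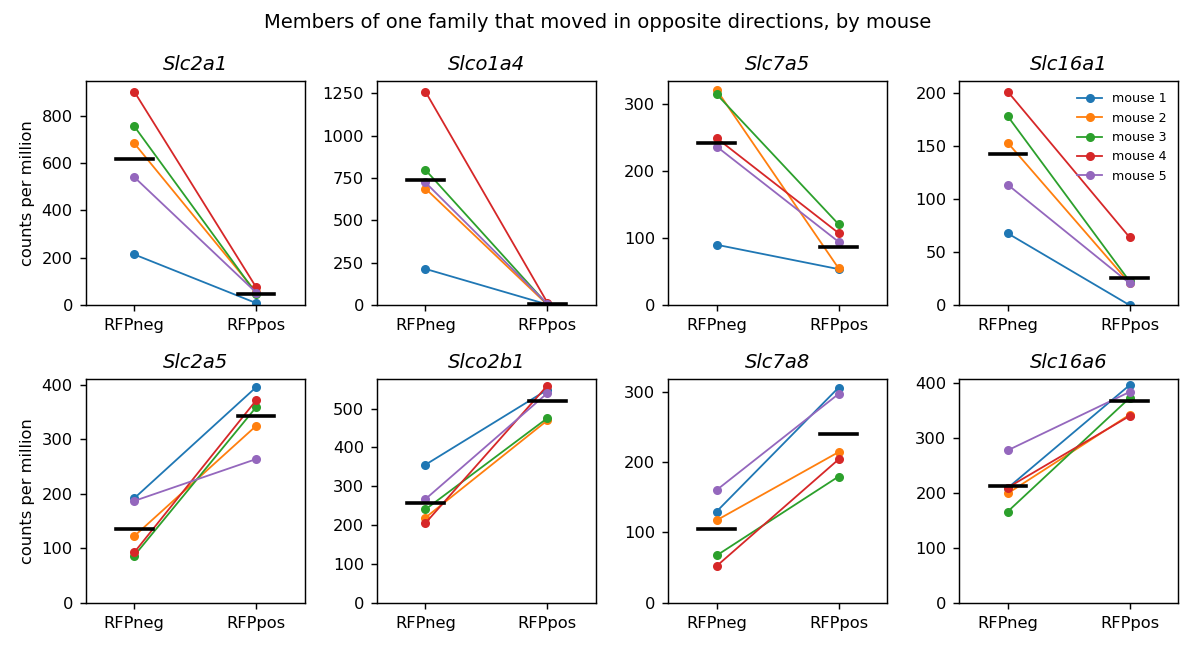
CPM of 4 pairs of members from the same family, with the member that fell above and the member that rose below; each line joins the RFPneg and RFPpos samples of 1 mouse, and black bars are means of 5. In all 8 panels the 5 lines run in the same direction; scaled to the microglia markers Slco2b1 and Slc16a6 were below 0, and Slc2a5 and Slc7a8 did not pass.

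Some astrocyte carriers were lower in RFPpos in every mouse and others split by mouse. Slc1a2 (ENSMUSG00000005089), the main glutamate transporter of astrocytes and the member with the most counts, stood at 998, 1285, 1207, 1123 and 1515 CPM in the RFPneg samples of mice 1 to 5 and at 323, 462, 1067, 1114 and 980 CPM in RFPpos. It was lower in RFPpos in 5 of 5 mice, and the RFPpos samples of mice 1 and 2 were far below the rest. The log2 fold change was -0.69 (SE 0.20, edgeR adjusted p 0.018), and the call was lost without mouse 1 (-0.52, edgeR adjusted p 0.095) or mouse 2 (-0.50, edgeR adjusted p 0.21). An unpaired fit, without mouse as a block, lost the call on Slc1a2 as well (-0.58, edgeR adjusted p 0.106). Slc1a3, the second glutamate transporter of astrocytes, had 705, 1107, 866, 483 and 711 CPM in RFPneg and 301, 884, 1305, 1353 and 1001 CPM in RFPpos. It was higher in 3 mice and lower in mice 1 and 2, with a log2 fold change of 0.31 that did not pass (edgeR adjusted p 0.47) and that became -0.84 against the microglia markers.

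Slc4a4, a sodium bicarbonate cotransporter, showed the same split as Slc1a3, with 463, 1035, 801, 761 and 444 CPM in RFPneg and 85.4, 901, 1121, 946 and 1087 CPM in RFPpos (edgeR adjusted p 0.88). Slc6a11, a GABA carrier, had 316, 459, 351, 310 and 330 CPM in RFPneg and 13.5, 93.2, 157, 232 and 124 CPM in RFPpos. Its groups did not overlap, and its log2 fold change of -1.58 (SE 0.28, edgeR adjusted p 9.14e-05) passed without any 1 of the 5 mice. The zinc carrier Slc39a12 fell by 0.99 on the log2 scale, a call lost without mouse 1, 2 or 3 (-0.85, -0.88 and -0.88). Slc7a10, a carrier of serine and glycine, did not pass (log2 fold change -0.83, edgeR adjusted p 0.35). Over the list, 4 of 15 tested genes fell and 0 rose (edgeR), beside 9.11% lower and 5.68% higher over all tested genes. The median log2 fold change was -0.57, beside -0.08 over all tested genes. This list was also chosen with earlier results of these data known.

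The summed markers of astrocytes split by mouse in the same way as the summed carriers. The 9 markers summed to 2313, 3396, 3117, 2423 and 2413 CPM in the RFPneg samples of mice 1 to 5 and to 350, 1598, 3327, 3441 and 2681 CPM in RFPpos. The 15 genes of the list, among them the adaptor Slc9a3r1, summed to 3023, 4753, 4112, 3296 and 3767 CPM in RFPneg and to 809, 2713, 4268, 4360 and 3806 CPM in RFPpos. Both sums were lower in RFPpos in mice 1 and 2 and higher in mice 3, 4 and 5. Aldoc was the most abundant marker, none of the 9 was at 0, and the part of astrocyte RNA in the values of the carriers was not tested.

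**Figure D4:**
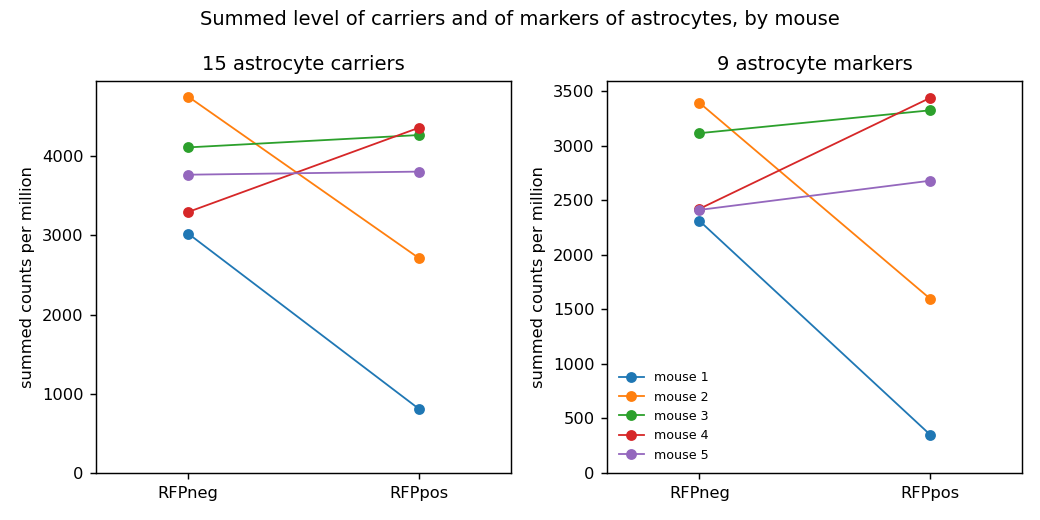
Summed CPM of the 15 genes of the astrocyte carrier list and of the 9 astrocyte markers, which share no gene, with 1 line for each mouse from its RFPneg to its RFPpos sample. In both panels the RFPpos sample of mouse 1 is lowest, at 809 CPM and 350 CPM, and the lines of mice 3, 4 and 5 do not fall.

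Carriers of other brain cells were sparse, and their lists were also chosen with earlier results of these data known. The 2 tested carriers of the oligodendrocyte list, the choline transporter Slc44a1 and the chloride cotransporter Slc12a2, did not pass, with 102 CPM ± 24.9 against 56.7 CPM ± 18.8 for Slc44a1 and 165 CPM ± 47.6 against 116 CPM ± 44.01 for Slc12a2 (RFPneg and RFPpos, SD, n = 5 each). The 8 oligodendrocyte markers summed to 10165 CPM ± 5193 and 1795 CPM ± 979, with all 8 lower. Of the neuron list 1 carrier of 9 had enough counts, Slc1a1, a glutamate and cysteine transporter. It had 22.6, 45.9, 55.3, 101 and 26.7 CPM in RFPneg and no count in RFPpos, at least 21.1-fold lower (edgeR adjusted p 1.64e-05). The 7 neuron markers summed to 371 CPM ± 95.8 and 125 CPM ± 66.6, with Meg3 the most abundant. In the list of fibroblasts, mural cells and choroid plexus, 2 of 6 tested carriers fell, where 9.11% of all tested genes did, Slc6a20a (log2 fold change -3.34, edgeR adjusted p 0.0026; -2.83 and not passed without mouse 3) and Slc4a10 (29 counts against 3, a ratio of 8.88 with a 95% exact counting interval of 2.75 to 45.6). Without any 1 mouse Slc4a10 was under 30 counts and not tested. The 6 markers of choroid plexus and ependyma summed to 2363 CPM ± 1774 and 603 CPM ± 579, with 1 of 2 tested genes lower, Ttr the most abundant, and Tmem212 and Ak7 at 0 in RFPpos. The part of these cells was not tested.

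Further markers of blood and other cells are given for comparison. The 8 markers of monocytes, neutrophils and lymphocytes summed to 3986 CPM ± 1770 in RFPneg and 135 CPM ± 75.8 in RFPpos, led by S100a8 in RFPneg and by H2-Aa in RFPpos and with Ly6c2, Cd3g and Cd79a at 0 in RFPpos, and the 4 red cell markers to 925 CPM ± 429 and 47.9 CPM ± 42.97 (SD, n = 5 each). The 6 markers of macrophages at brain borders stood at 183 CPM ± 20.02 and 186 CPM ± 72.8, and none of them passed. The 6 fibroblast markers summed to 210 CPM ± 61.0 and 63.8 CPM ± 73.7 with Lum and Col3a1 at 0 in RFPpos, and the 4 markers of oligodendrocyte progenitors to 144 CPM ± 88.8 and 16.4 CPM ± 11.5 with Pdgfra and Cspg4 at 0. Their part in the levels of carriers was not tested.

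Grouped by substrate, fallen members were most frequent among amino acid, organic anion and cation, and monocarboxylate carriers, and the other classes held smaller shares. Of 32 members of amino acid carrier families 11 fell and 1 rose (edgeR), with a median log2 fold change of -0.59. Of 9 carriers of organic anions and cations 4 fell and 1 rose (median -2.01), and of 5 monocarboxylate carriers 3 fell and 1 rose (median -2.53). Of 24 metal carriers 4 fell and 0 rose (median -0.10), among them Slc30a1, Slc39a10, a zinc importer, and Slc48a1, a heme carrier. The 20 members of ion carrier families, adaptors and other proteins with such symbols included, had 2 that rose and 2 that fell, the latter Slc4a10 and the adaptor Slc9a3r2 (median 0.35), and the 7 sugar carriers and the 7 nucleoside and vitamin carriers had 1 of each (medians 0.75 and 0.46). Of 3 peptide carriers 1 rose and 0 fell (median 0.63), and of 14 members of other families 1 rose and 0 fell (median 0.22). Over all tested genes 9.11% were lower and 5.68% higher, with a median of -0.08.

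Mitochondrial and nucleotide sugar carriers were counted apart, beside 9.11% of all tested genes lower and 5.68% higher. Of 23 mitochondrial carriers 1 fell and 0 rose (edgeR), with a median log2 fold change of -0.28. The phosphate carrier Slc25a3 stood at 485 CPM ± 25.5 in RFPneg and 441 CPM ± 143 in RFPpos, and the ATP-ADP exchangers Slc25a4 and Slc25a5 at 383 CPM ± 77.9 against 299 CPM ± 113 and at 119 CPM ± 32.4 against 129 CPM ± 30.5 (SD, n = 5 each). None of the 3 passed; these genes have close copies and pseudogenes, so their levels are uncertain. The mitochondrial carrier that fell was Slc25a24, which exchanges ATP-Mg for phosphate, with 56 counts in RFPneg and 0 in RFPpos, at least 17.2-fold lower (edgeR adjusted p 8.78e-05). The 18 genes counted as nucleotide sugar carriers are the members of the Slc35 family, placed by symbol and not by the substrate of each gene. Of these 1 fell, Slc35f2, with 49 counts against 0, at least 15-fold lower (edgeR adjusted p 3.09e-04), and the median of the group was -0.0043.

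Genes that work beside solute carriers were read from a list of 29, chosen with earlier results of these data known. Of 27 tested, 5 rose and 8 fell (edgeR), beside 5.68% higher and 9.11% lower over all tested genes. The median log2 fold change was -0.53, beside -0.08 over all tested genes. Among those that fell were the exporters Abcb1a (log2 fold change -4.65, edgeR adjusted p 4.24e-12), Abcc4 (-2.96) and Abcg2 (-1.74), and Mfsd2a (-1.79), which carries lysophospholipids into the brain. Bsg, the chaperone that brings Slc16a1 to the membrane, fell from 841 CPM ± 344 to 91.0 CPM ± 53.4 (SD over 5 mice), or by 3.13 on the log2 scale (edgeR adjusted p 1.89e-10). The iron proteins Tfrc (-2.96) and Cp (-2.78) and the thyroxine carrier Ttr (-1.94) fell too. The 5 that rose were the lipid exporters Abca1 (0.89) and Abcg1 (0.94), Abca9 (1.51), Mfsd1 (0.83) and the endocytic receptor Lrp1 (1.11), and all but Abca9 (0.38) were below 0 against the microglia markers. The sodium pump subunit Atp1b2 and the water channel Aqp4 did not pass.

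Promoters of 2 sugar and 2 organic anion transporters that moved apart are shown with 2 motifs, the purine box GAGGAA bound by PU.1, a factor of the macrophage lineage, and the ETS core CCGGAA. Sequences of 300 bases are from RefSeq on GRCm38.p6, 5' to 3' on the strand of the gene, with matches on either strand in capitals: Slco1a4 at chr6:141856171-141856470 and Slco2b1 at chr7:99711291-99711590, both minus strand, and Slc2a1 at chr4:119108495-119108794 and Slc2a5 at chr4:150119094-150119393, both plus strand.
Slco1a4: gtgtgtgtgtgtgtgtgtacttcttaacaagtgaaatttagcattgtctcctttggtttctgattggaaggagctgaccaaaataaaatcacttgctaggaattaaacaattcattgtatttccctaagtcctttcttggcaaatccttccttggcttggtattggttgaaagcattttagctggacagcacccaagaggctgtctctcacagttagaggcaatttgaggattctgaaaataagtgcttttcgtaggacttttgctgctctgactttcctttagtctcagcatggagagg
Slco2b1: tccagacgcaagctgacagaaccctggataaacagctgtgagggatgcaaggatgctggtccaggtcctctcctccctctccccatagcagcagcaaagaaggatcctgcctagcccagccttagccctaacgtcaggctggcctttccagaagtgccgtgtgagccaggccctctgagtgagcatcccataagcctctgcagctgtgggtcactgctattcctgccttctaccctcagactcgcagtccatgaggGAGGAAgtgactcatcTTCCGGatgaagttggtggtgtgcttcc
Slc2a1: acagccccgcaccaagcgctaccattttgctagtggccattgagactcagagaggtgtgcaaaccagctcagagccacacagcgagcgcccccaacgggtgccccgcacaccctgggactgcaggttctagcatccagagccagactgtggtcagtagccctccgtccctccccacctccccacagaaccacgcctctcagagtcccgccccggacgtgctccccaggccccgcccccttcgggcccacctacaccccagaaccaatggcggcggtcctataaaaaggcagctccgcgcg
Slc2a5: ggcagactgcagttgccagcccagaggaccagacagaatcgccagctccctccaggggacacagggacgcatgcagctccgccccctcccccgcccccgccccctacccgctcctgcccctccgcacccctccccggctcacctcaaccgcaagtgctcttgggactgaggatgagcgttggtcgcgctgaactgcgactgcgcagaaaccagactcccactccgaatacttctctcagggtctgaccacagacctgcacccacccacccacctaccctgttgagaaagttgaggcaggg

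Slco2b1 held 1 match to each motif in this window, and Slco1a4, Slc2a1 and Slc2a5 held 0 matches. Among these genes Slco2b1 alone had further promoters listed, so more of its sequence could be searched. The window at chr7:99706793-99707092 held 1 match to GAGGAA and 0 to CCGGAA, and the window at chr7:99695760-99696059 held 1 match to each. Of all 27025 genes with a promoter of this length, 31.3% held GAGGAA and 16.7% held CCGGAA in at least 1 promoter. Among risen members with a promoter in the table, 3 of 7 genes had GAGGAA and 2 had CCGGAA, and among fallen members 7 of 21 genes had GAGGAA and 0 had CCGGAA. A match is a run of letters and was not tested as a binding site.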

How the data were processed

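The deposited values are counts of 3' tags per gene in 10 bulk samples, made by the authors with a QuantSeq 3' forward pipeline with molecular identifiers; the annotation and the strand setting of the counting are not given in the sources used here. Genome build mm10 is named in the submitters' processing notes. Of 47643 gene identifiers, 47224 matched GENCODE symbols on GRCm38; rows that name no gene were left out of library sizes and tests. Members and lists were chosen with earlier results of these data known.

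Genes with at least 30 counts over the 10 samples (8902) were fitted with edgeR 4.0.16 in R 4.3.3: TMM scaling, mouse as a block, quasi-likelihood test, Benjamini-Hochberg adjustment. The SE is the absolute log2 fold change divided by the square root of F. Samples are paired because both populations came from the same mouse; correlations of deviations within pairs were 0.12, -0.01, 0.06, -0.01 and 0.03. No 2 libraries of a group agreed within sampling noise. CPM are counts divided by all counts on genes. Genes at 0 in RFPpos were set against 3 counts over the group. Named were the members called with the same sign in 5 of 5 mice (up to 12 a direction by p), the 8 of highest mean CPM and a list of textbook transporters; other members that passed were named after their values were seen. The comparison of proteins planned with this rule was not made. Alternatives were other scalings, filters and tests (DESeq2 1.42.0, limma 3.58.1), no block, each mouse left out and thinned counts. The fit was tested on simulated data.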

Additional observations from a re-analysis of the deposited data

Results flagged for a closer look

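Levels of the named members, their share of counts and the share of reads on no gene were examined within each population of 5, 74 groups of values in all. In 8 of them 1 sample stood far from the other 4. The nominal rate by chance is about 1 in 20. That rate was not measured on these data and need not hold for values from few counts, such as those of Slc38a5 and Slco1c1. The RFPpos sample of mouse 4 had 19.96 CPM of Slco1c1, where the other 4 had 3.45 to 4.49. The RFPneg sample of mouse 1 had 22.6 CPM of Slc9a3r2, where the others had 96.8 to 112, and 107 CPM of Slc11a1, where the others had 36.2 to 40.8. The RFPneg sample of mouse 4 had 306 CPM of Slc30a1, where the others had 137 to 177. The RFPpos sample of mouse 5 had 4.12 CPM of Slc38a5, from 1 count, where the others had 0. The RFPpos sample of mouse 1 had 85.4 CPM of Slc4a4, where the others had 901 to 1121. The RFPneg sample of mouse 2 had 459 CPM of Slc6a11, where the others had 310 to 351, and the RFPneg sample of mouse 3 had 31.3 CPM of Slc7a7, where the others had 5.10 to 11.3.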

How the results depend on the processing

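Of the 37 members that passed, 37 also passed in the same direction with median-of-ratios size factors, with library size only, with edgeR's likelihood ratio test and with limma-voom, and 32 with DESeq2. Called at an absolute log2 fold change above 1 were 327 genes higher and 732 lower, and 8 and 25 members. Scaled to the 20 microglia markers these became 7 and 4440 genes, and 0 and 74 members, by the shift of all genes that this scaling makes. With filterByExpr, which tests fewer genes (76 members), 385 genes and 16 members were lower. DESeq2 called 5 members higher, and the cause was not tested. Without the fold change condition 506 genes were higher. Leaving out 1 mouse at a time, which leaves fewer samples, gave 5 to 9 members higher (5 without mouse 2 or 3), 20 to 23 lower, 275 to 338 genes higher and 519 to 632 lower. Without the mouse block, in an unpaired fit, 349 genes were higher and 735 lower, and 9 members were higher and 24 lower; 3 members lost their call.

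Among the members that passed or were named, signs changed against the microglia markers for Slco2b1 (-0.0328), Slc12a9 (-0.0309), Slc16a6 (-0.26), Slc1a3 (-0.84), Slc4a4 (-1.07), Slc3a2 (-1.09), Slc11a1 (-0.25), Slc40a1 (-1.11) and Slc25a5 (-0.96). The other sign changes among these were in members near 0 that did not pass: Slc4a4 with DESeq2 (-0.0182); Slc3a2 with median-of-ratios factors (-0.0017), library size (-0.0246), filterByExpr (-0.0285), DESeq2 (-0.0031) and thinned counts (-0.0375); Slc40a1 in the same settings (-0.0222, -0.0370, -0.0497, -0.0135 and -0.0186). With 1 mouse left out, Slc4a4 ran from -0.247 to 0.504 (-0.0026 without mouse 3), Slc25a3 from -0.257 to 0.0632, Slc3a2 from -0.133 to 0.162 and Slc40a1 from -0.155 to 0.197. Their cause was not tested. Depth is 1 limit: 76 of 162 members pass filterByExpr.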

Other observations

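The 125 solute carriers with 1 to 29 counts held 799 counts over the RFPneg group and 422 over the RFPpos group. In a fit to all genes with at least 1 count, 1 of them passed, Slc24a2, a calcium exchanger of neurons, with 27 counts in RFPneg and 0 in RFPpos, at least 8.27-fold lower (edgeR adjusted p 0.0020), and 0 were higher; 5 of the 125 had an unadjusted p under 0.05.

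The 8 members of highest mean level took 33.1%, 38.01%, 37.3%, 39.4% and 36.7% of all member counts in the RFPneg samples of mice 1 to 5, and 26.9%, 32.8%, 37.8%, 37.6% and 36.2% in their RFPpos samples. The lowest share was in the RFPpos sample of mouse 1, which also had the lowest levels of Slc1a2, Slc1a3 and Slc4a4.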
